A study of Homo sapiens with 4 samples.

Results

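The RAD51B and ZFP36L1 locus on chromosome 14 carried 22 FOXA2 peaks in PC3 cells given GSK2879552, against 29 in PC3 cells given vehicle. The members are the peaks with a summit in chr14:68250000-69350000 of the hg19 build, a window of 1.1 Mb. They were 22 of 14846 peaks in the GSK2879552 list and 29 of 21308 peaks in the vehicle list. Members were chosen by the position of their summits, and the window itself was picked with the peak lists known, because it is dense in peaks and holds one of the strongest. The density of the window and the height of its tallest peak are therefore descriptions of that choice. The outermost summits inside the window lay 73.6 kb and 56.4 kb from its edges, while a peak of each list lay close outside its low edge. These nearest peaks before the window were chr14:68240748-68240997 in GSK2879552, 9.16 kb away with 18 fragments at its summit, and chr14:68240653-68240943 in vehicle, 9.22 kb away with 21. Beyond it they were chr14:69560654-69560880 in GSK2879552, 210.8 kb away with 19 fragments, and chr14:69476965-69477142 in vehicle, 127.0 kb away with 15. Just inside, site 1 (first from the low end) had 16 fragments in GSK2879552 and 35 in vehicle, and site 29 (last) had 32 and 40. Fragments are the sequenced pieces that cover a summit, a whole number solved from the authors' fold enrichment and −log10 p of each peak.

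PC3 is a prostate cancer cell line that grows without androgen. GSK2879552 inhibits the histone demethylase LSD1 (KDM1A), and the comparison asks whether FOXA2 occupancy differs when LSD1 is inhibited. The GSK2879552 cells, in medium with 5% CSS, received 50 µM of the compound for 4 hours; the labels give vehicle as the agent of the other cells and repeat the same protocol for them. All cells were kept in RPMI-1640, and no genetic change is named. Each group had 2 samples, taken here as the lanes of 1 library, and 1 peak list that both samples name. The 2 lists are therefore single measurements without replicates.

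FOXA2, a forkhead factor, can bind its sites on closed chromatin and open them for other proteins, and it is best known from liver, gut and other tissues of endodermal origin. LSD1 removes methyl groups from histone H3 and works in complexes that silence or tune enhancers. RAD51B is a subunit of the BCDX2 complex, which takes part in the repair of broken DNA by homologous recombination. ZFP36L1 is a zinc finger protein that binds AU-rich elements in messenger RNAs and speeds their decay. RAD51B is transcribed toward higher coordinates and ZFP36L1 toward lower ones, and the protein-coding neighbours of the pair are ZFYVE26 and ACTN1, all by RefSeq on GRCh38.p14.

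RAD51B takes up most of the window and held most of its FOXA2 peaks. On hg19, RAD51B spans 68.29 to 69.20 Mb and ZFP36L1 69.25 to 69.26 Mb, both given to 0.01 Mb. Inside RAD51B lay 20 of the 22 GSK2879552 and 27 of the 29 vehicle peaks, which is 2.20 and 2.97 peaks per 100 kb of the gene. The gene itself makes up 82.7% of the window, so these counts alone do not set it apart from its flanks. No peak of either list lay inside ZFP36L1 or in the 40 kb of the window before RAD51B. A single site lay between the genes and a single one beyond ZFP36L1. Exons and introns were not assigned, since no hg19 annotation was used here. In what follows the vehicle peaks are numbered as sites 1 to 29 from low to high coordinate, which for RAD51B is from its start to its end.

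**Figure D1:**
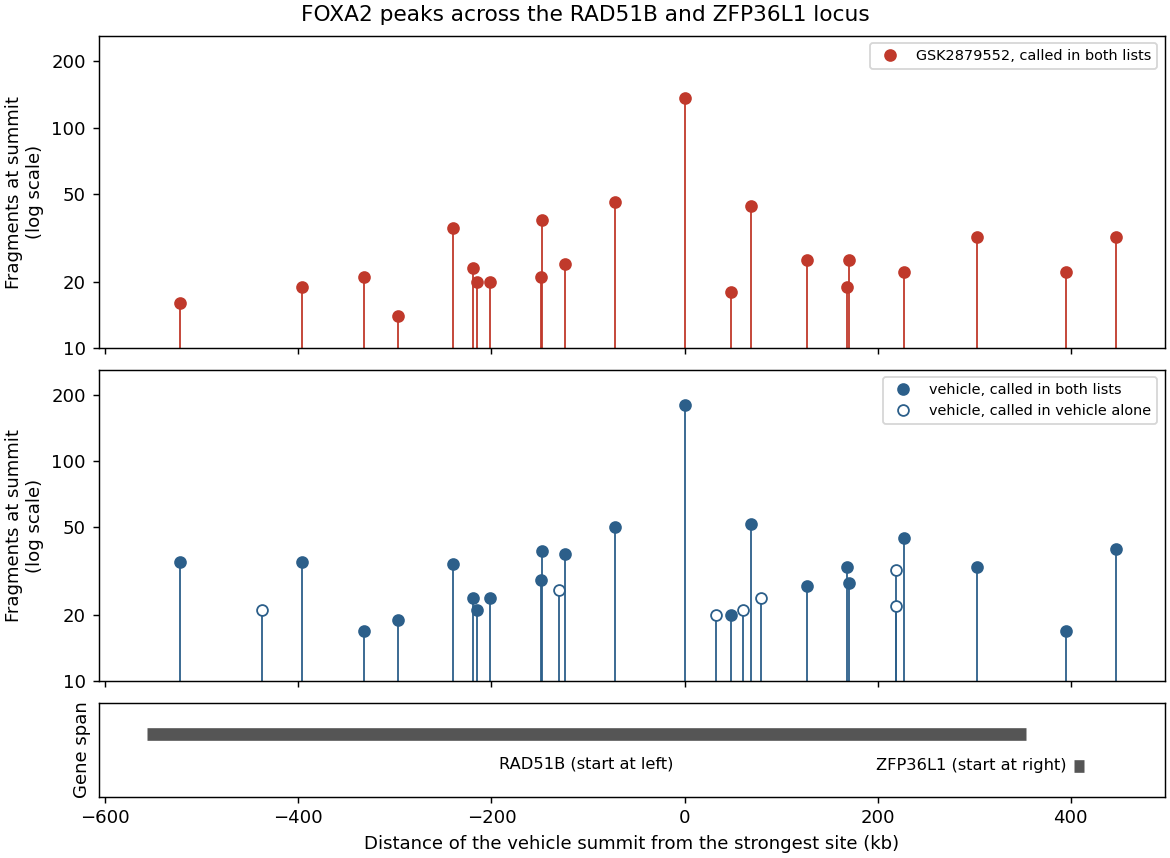
Fragments at the peak summits on a log axis (GSK2879552 above, vehicle in the middle) against distance from the strongest vehicle summit in kb, with the gene spans below. Site 15 at 0 kb stands highest in both libraries (137 and 180 fragments), and the 7 open circles are vehicle peaks without a GSK2879552 peak, all of them within RAD51B.

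No FOXA2 peak was called at the start of either gene. The summit nearest the start of RAD51B was site 1, 34 kb inside the gene. The summits nearest the start of ZFP36L1 were site 28, 18 kb away on the side of the gene's end, and site 29, 34 kb upstream of it. These distances carry the rounding of the gene spans. The sequence before the ZFP36L1 start is shown because the closest sites flank it without covering it. It is the 250 bases upstream of that start in RefSeq, at chr14:68796244-68796493 on the minus strand of GRCh38.p14, a build whose coordinates are not those of the peaks. The same table lists another ZFP36L1 start at a lower coordinate, whose upstream sequence is not printed.

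ZFP36L1: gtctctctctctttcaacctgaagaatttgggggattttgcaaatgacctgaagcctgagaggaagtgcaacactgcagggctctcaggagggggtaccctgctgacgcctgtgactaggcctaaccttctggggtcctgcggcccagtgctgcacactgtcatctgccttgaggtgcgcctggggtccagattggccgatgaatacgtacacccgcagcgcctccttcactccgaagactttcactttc

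Bases G and C make up 56.4% of this stretch. Both strands were searched for a forkhead motif in 4 spellings, with G as the second base (TGTTTAC or, for a final GC, TGTTTGC) or with A there (TATTTAC or, for a final GC, TATTTGC), and there were 0 matches in the printed sequence and 0 upstream of the other listed start, which says only that these letters are not in these windows. Of 35116 RefSeq promoters of the same length, 10.6% held at least 1 of the 4 spellings. The sequences under the peaks could not be shown, since no genome of the hg19 build was used here.

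Every GSK2879552 peak in the locus had a vehicle counterpart, and 7 vehicle sites had no GSK2879552 peak. Overlap of at least 1 bp was found for 22 of 22 GSK2879552 peaks (100%, exact 95% interval from 84.6%) and 22 of 29 vehicle peaks (75.9%, 56.5 to 89.7). Peaks without a counterpart were thus 0 of 22 GSK2879552 peaks, beside 10.8% of that list as a whole, and 7 of 29 vehicle peaks, beside 38.0% of the vehicle list. Both intervals cover counting error only. That of the GSK2879552 share reaches below the 89.2% overlapped over the whole GSK2879552 list, and that of the vehicle share below the 62.0% overlapped over the whole vehicle list. On the rest of chromosome 14 the overlapped shares were 91.2% of 660 GSK2879552 peaks and 64.4% of 931 vehicle peaks.

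The ratio of peak numbers, GSK2879552 over vehicle, was 0.759 in the locus (95% interval 0.415 to 1.37, counting error only), 0.709 on the rest of chromosome 14 and 0.697 over the whole lists. The interval of the locus covers both other values and also 1, but it treats the peak numbers as separate counts, while the lists share 22 sites and the 7 others are all in the vehicle list. Peaks covered 5.38 kb in GSK2879552 and 8.36 kb in vehicle, a ratio of 0.643, beside 0.657 over the whole lists. GSK2879552 peaks of the locus had a median width of 238.5 bp and vehicle peaks one of 295 bp, beside 242 bp and 258 bp over all peaks. Windows of 1.1 Mb were laid over all chromosomes, and those without a peak in either list and those touching the locus were left out. The rest had a median of 5 GSK2879552 and 7 vehicle peaks. Of these 2481 windows, 24 held at least 22 GSK2879552 peaks and 19 at least 29 vehicle peaks. Among the 144 windows with 20 or more vehicle peaks the median ratio of peak numbers was 0.70 (interquartile range 0.618 to 0.783), and 44 of them had a higher ratio than the locus.

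**Figure D2:**
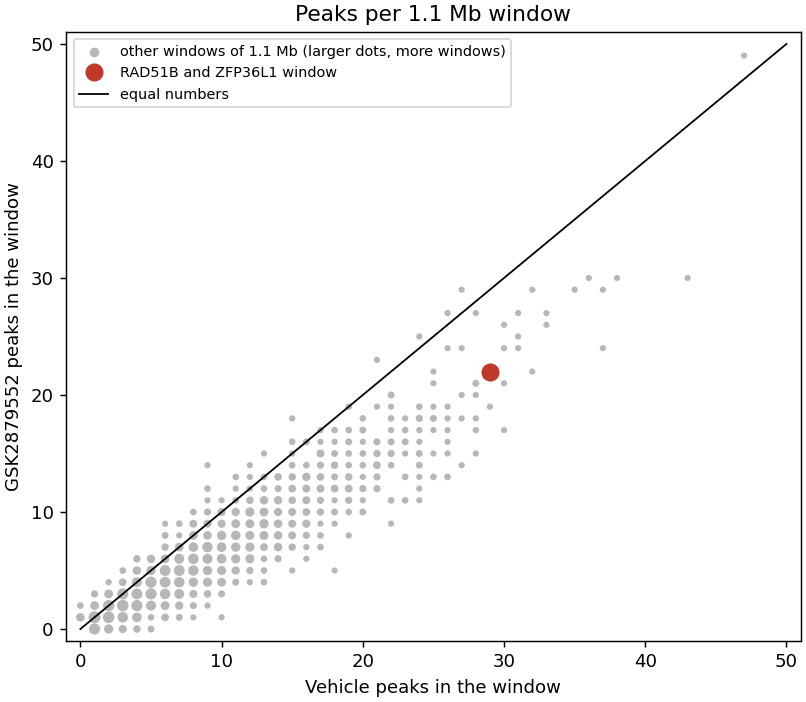
GSK2879552 peaks against vehicle peaks in windows of 1.1 Mb over all chromosomes, windows without any peak left out. The line marks equal numbers. The RAD51B and ZFP36L1 window, at 29 vehicle and 22 GSK2879552 peaks, lies under the line, as do 139 of the other 144 windows with 20 or more vehicle peaks.

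Site 15, at chr14:68846484-68846865, was the strongest FOXA2 site of the locus in both libraries. Its summit lay 557 kb inside RAD51B and was covered by 137 fragments in GSK2879552 and 180 in vehicle. By −log10 p it ranked 15 of 14846 in the GSK2879552 list and 10 of 21308 in the vehicle list, and the authors' fold enrichment was 15.4 in the first list and 18.4 in the second. The ratio of fragments, scaled by the genome-wide background of each library, was 0.760 (95% interval 0.604 to 0.954), a log2 ratio of -0.40. All such intervals are exact conditional binomial ones and cover counting error only. The summits of the 2 lists lay 7 bp apart. No other site came near this height: the next had 46 fragments in GSK2879552 (site 14) and 52 in vehicle (site 19).

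Fragment numbers were lower after GSK2879552 at 19 of the 22 paired sites and higher at 3, without scaling. Over all 13200 pairs of the 2 lists, 78.0% were lower. A ratio exists only where both lists hold a peak, so the 7 unpaired vehicle sites are left out of these values. A site that fell too low to be called in GSK2879552 has no ratio. This bears most on weak vehicle sites, such as sites 4 and 28 with 17 vehicle fragments, and it holds for all pairs as well. Paired sites had a median of 22.5 fragments in GSK2879552 (range 14 to 137) and 33 in vehicle (17 to 180). In the median the log2 ratio was -0.21 (interquartile range -0.46 to -0.07), which is a ratio of 0.867, against -0.32 (-0.57 to -0.08) and 0.798 over all pairs and -0.34 over 600 pairs on the rest of chromosome 14. Summed over the pairs, 673 fragments in GSK2879552 stood against 840 in vehicle, a scaled ratio of 0.800 (0.721 to 0.886), beside 0.798 over all pairs. Without site 15 the sums were 536 and 660, with a ratio of 0.810. By the sum the paired sites of the locus were thus close to all pairs, while by their median the difference was smaller. No paired site had an interval that lay wholly below or wholly above the ratio of 0.798. The order of the sites was partly kept between the libraries, with a Spearman correlation of 0.61 over the 22 pairs. It was 0.86 over the 600 pairs on the rest of chromosome 14 and 0.82 over all 13200. These points share their libraries. The interquartile range of vehicle fragments was 24 to 38.75 in the locus and 17 to 35 over all pairs, and its part in the correlation was not tested.

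**Figure D3:**
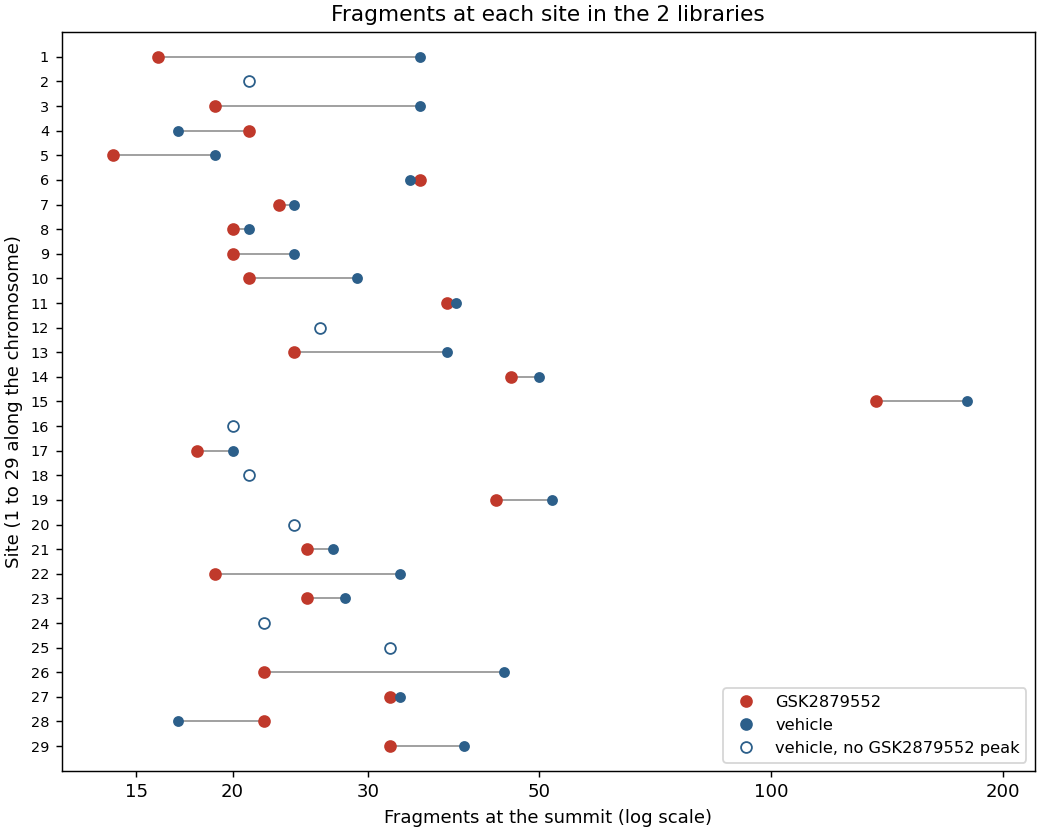
Fragments at the summit on a log axis for sites 1 to 29, GSK2879552 in red and vehicle in blue, a line joining the 2 values of a site and open circles for vehicle peaks with no GSK2879552 peak. Most red points lie left of the blue ones, with the longest lines at sites 1, 3, 22 and 26, and 3 red points (sites 4, 6 and 28) lie to the right.

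At 4 of the 22 paired sites the interval of the ratio lay wholly below 1, and at 0 wholly above. Over all pairs these shares were 8.24% and 0.0227%. The 4 sites all had 30 or more vehicle fragments. Of the 12 paired sites of that strength in the locus, 4 had an interval wholly below 1, beside 19.7% of 4617 such pairs over the whole lists. These sites were grouped by their vehicle fragments, which are also one of the numbers in the ratio.

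The early part of RAD51B held both the lowest ratio of the paired sites and one of the higher ones. Site 1, at chr14:68323526-68323820 and the site nearest the gene's start, had 16 fragments in GSK2879552 and 35 in vehicle, a ratio of 0.456 (0.236 to 0.846) and a log2 ratio of -1.13. Site 3, at chr14:68449960-68450256 and 160 kb inside the gene, had 19 and 35, with a ratio of 0.542 (0.293 to 0.973). Between them site 2, at chr14:68408631-68408866, had 21 fragments in vehicle and no GSK2879552 peak. The next sites inward were weaker in vehicle. Site 4 had 21 fragments in GSK2879552 and 17 in vehicle (1.23, interval 0.619 to 2.49), and site 5 had 14 and 19 (0.735, 0.341 to 1.55). The 2 sites that were equally strong in vehicle in this stretch were thus both low in GSK2879552, while the interval of site 4 covers ratios on both sides of 1.

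The middle of the gene, from 317 kb to 433 kb inside it, held 8 vehicle sites, and 7 of them had a GSK2879552 peak. Site 6, at chr14:68607024-68607354, had 35 fragments in GSK2879552 and 34 in vehicle, a ratio of 1.03 (0.622 to 1.70). Sites 7 and 8 lay 3.98 kb apart and had 23 and 20 fragments in GSK2879552, against 24 and 21 in vehicle. Both differed by 1 fragment. Site 9 had 20 in GSK2879552 and 24 in vehicle. Sites 10 and 11 were the closest paired sites of the locus, 912 bp apart in vehicle and 867 bp in GSK2879552. Site 10 had 21 fragments in GSK2879552 and 29 in vehicle, and its stronger neighbour site 11, at chr14:68698570-68698945, had 38 and 39, a ratio of 0.972 (0.605 to 1.56). Further on, site 12 at chr14:68716908-68717216 had 26 fragments in vehicle and no GSK2879552 peak, and site 13, at chr14:68722479-68722773 and 5.51 kb from it, had 24 fragments in GSK2879552 and 38 in vehicle (0.630, 0.362 to 1.08). Unequal ratios thus stood side by side in this stretch, though their intervals overlap.

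The stretch around the strongest site held the pairs with the next highest fragment numbers and 3 of the 7 unpaired sites. Site 14, at chr14:68774193-68774514, had 46 fragments in GSK2879552 and 50 in vehicle, a ratio of 0.918 (0.602 to 1.40). Site 19, at chr14:68915174-68915458, had 44 and 52, a ratio of 0.844 (0.552 to 1.29). After site 15 they had the most summit fragments of the locus in both libraries, and their intervals cover 1. By −log10 p the order in vehicle was another, with site 26, described next, ahead of site 14 (rank 2084 against 2683 of the vehicle list). Beyond site 15, sites 16, 18 and 20 had 20, 21 and 24 fragments in vehicle and no GSK2879552 peak. Among them site 17 was as weak in vehicle, at 20 fragments, and had a GSK2879552 peak of 18 fragments. Site 21 closed this stretch with 25 fragments in GSK2879552 and 27 in vehicle.

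Toward the end of RAD51B a stretch of 8.71 kb held 3 vehicle sites, of which 1 had a GSK2879552 peak. Sites 24 and 25, at chr14:69065449-69065827 and chr14:69065923-69066143, had summits 476 bp apart with 22 and 32 fragments in vehicle. Neither had a GSK2879552 peak, and site 25 was the strongest of the 7 unpaired sites. Site 26, at chr14:69074110-69074420 and 8229 bp from site 25, had 22 fragments in GSK2879552 and 45 in vehicle, a ratio of 0.488 (0.279 to 0.830) and a log2 ratio of -1.04. This was the longest group of vehicle summits joined at up to 10 kb. On its near side, sites 22 and 23 lay 2.15 kb apart. Site 22, at chr14:69015002-69015240, had 19 fragments in GSK2879552 and 33 in vehicle (0.575, 0.309 to 1.04), and site 23 had 25 and 28. On its far side site 27, at chr14:69149484-69149818, had 32 and 33, a ratio of 0.968 (0.576 to 1.62).

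The 2 sites flanking ZFP36L1 were called in both libraries. Site 28, at chr14:69241413-69241715, lay 8 kb past the end of ZFP36L1 and had 22 fragments in GSK2879552 and 17 in vehicle. Its ratio of 1.29 (0.655 to 2.59), a log2 ratio of 0.37, was the highest of the paired sites, with an interval that covers 1. Site 29, at chr14:69293369-69293700 and upstream of the gene, had 32 and 40 fragments, a ratio of 0.798 (0.485 to 1.30) that equals the median over all pairs. With 2 sites, nothing can be said of how the surroundings of ZFP36L1 differ from RAD51B.

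**Figure D4:**
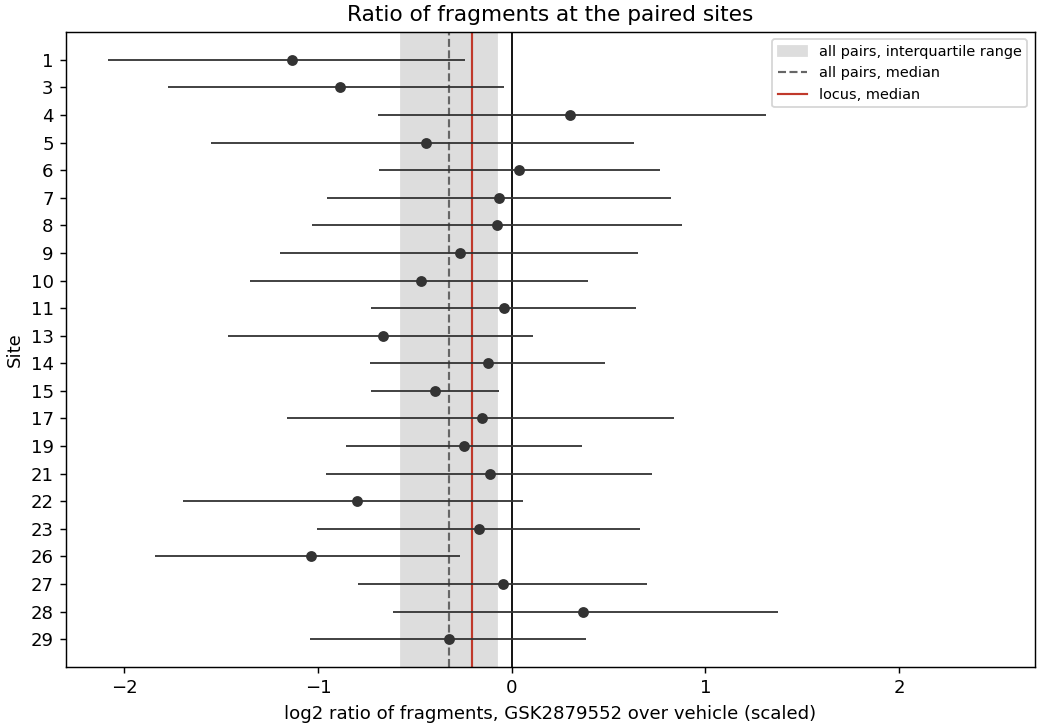
log2 ratio of fragments, GSK2879552 over vehicle, scaled by background, at the 22 paired sites with exact 95% intervals for counting error; the grey band and dashed line give the interquartile range and median over all 13200 pairs, and the red line the median of the locus. Points run from -1.13 at site 1 to 0.37 at site 28, and 4 intervals (sites 1, 3, 15 and 26) end left of 0.

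The 7 vehicle sites without a GSK2879552 peak were of low to middling strength. They had 20 to 32 fragments in vehicle (median 22) and an authors' fold of 4.34 to 6.78, against a median of 33 fragments and a fold of 6.79 at the 22 vehicle sites with a counterpart. The lowest GSK2879552 peak of the locus by fragments had 14, fewer than any of these sites had in vehicle. Over the whole vehicle list, peaks without a counterpart had a median of 14 fragments, fewer than those of the locus. By the authors' fold the order was the other way, with a median of 5.30 at the 7 sites and 5.77 over all vehicle peaks without a counterpart, so the sites were not stronger by both measures. A missing peak means that none was called, not that the site was shown to be empty. The nearest GSK2879552 summits lay from 5518 bp (site 12) to 41379 bp (site 2) away, so none was a peak that had only moved.

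Over the whole vehicle list, stronger peaks more often had a counterpart, and in the locus the order held except between the lowest bands. With a −log10 p of 20 or more, 10 of 10 vehicle sites had a counterpart, beside 95.2% of all vehicle peaks from 20 to 30 and 99.8% of those at 30 or more. From 15 to 20 it was 4 of 5 sites, beside 78.8%, and from 10 to 15 it was 6 of 11, beside 52.3%. Under 10 it was 2 of 3, beside 25.6%. With 3 to 11 sites in a band, the shares of the locus carry a wide counting error.

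Peaks were narrower after GSK2879552 at 18 of 22 paired sites and wider at 4, beside 75.0% narrower over all pairs. The fragment length used by the peak caller, which sets the smallest width, differed as well (168 bp for GSK2879552, 175 bp for vehicle), and its part in this was not tested. Paired summits lay a median of 15.5 bp apart (range 2 to 53), beside 23 bp over all pairs. Pairs are overlapping peaks by definition, so a distance within about the width of a peak is set by the pairing. GSK2879552 summits were spaced a median of 51.7 kb apart in the locus and vehicle summits 33.9 kb. Joined at up to 10 kb, they formed 19 groups in GSK2879552, the largest of 2 summits, and 22 in vehicle, the largest of 3. Single sites numbered 16 in each library, out of 22 summits in GSK2879552 and 29 in vehicle. At up to 20 kb, 15 GSK2879552 and 12 vehicle summits were single, and the largest groups held 3 and 5. How lone the sites appear thus depends on the joining distance, and no other region is set beside these numbers.

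Read numbers around the sites were high in both libraries. The peak caller's local background comes from 10 kb around the summit, the summit's own reads included, and was converted to reads per 10 kb. This conversion assumes that the background was taken from the FOXA2 library itself, which no source used here states. The median was 201.5 reads in GSK2879552 (range 125 to 475) and 205 in vehicle (139 to 505), beside 102 and 96 around all peaks and a genome average of 64.4 and 61.7. A local background over 2 fragments was found at 100% of the sites in both libraries, beside 36.6% of all GSK2879552 and 35.1% of all vehicle peaks. That limit lies just under the lowest values of the locus, 2.1 in GSK2879552 and 2.43 in vehicle. The 100% therefore depends on where the limit was set. Apart from site 15, the highest numbers belonged to sites 13 (370 reads in GSK2879552, 351 in vehicle) and 14 (342 and 304), although the summit of site 13 had no more than 24 and 38 fragments. The locus thus lay near the top of both lists in this respect, with a median above that of 89.9% of GSK2879552 and 91.8% of vehicle peaks.

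Tall or crowded peaks add to these numbers themselves, so weaker and lone sites were looked at apart. Of sites with 15 to 30 fragments, 14 of 14 in GSK2879552 and 16 of 16 in vehicle lay above the median of all peaks in that range, and 9 and 12 of them above its 90th percentile. At sites with no other called summit within 5 kb, the reads left after taking off the summit fragments had a median of 163 in GSK2879552 (16 sites, at least 109) and 159 in vehicle (21 sites, at least 111). Over all such peaks the medians were 78 and 69. What remains can still hold reads from the flanks of a peak. The number of copies of the region in PC3 cells was not measured, and its part in this was not tested.

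These surrounding reads were close to equal in number between the libraries. Scaled by reads per kb, the log2 ratio of reads in 10 kb was -0.04 in the median (range -0.43 to 0.21) over the 22 pairs, beside -0.06 over all pairs. With the same scaling the median log2 ratio at the summits was -0.26. The ratio of the 10 kb reads was closer to 0 than that of the summit at 17 of 22 pairs, beside 79.9% of all pairs. It rests on more reads and so carries less counting error. The 10 kb reads also include the summit fragments, and the scaling rests on the genome-wide background of each library. Values near 0 are therefore partly set by the method. At site 26 the surrounding reads numbered 192 in GSK2879552 and 187 in vehicle, beside its summit fragments of 22 and 45. Site 3 had 163 and 146 reads beside 19 and 35 fragments, so its surroundings were the higher in GSK2879552. Site 1 was the exception among the low sites, with 125 and 161 reads, the lowest ratio of the 22. Those numbers include its own summit fragments, 16 and 35, so part of this difference is that of the summit.

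**Figure D5:**
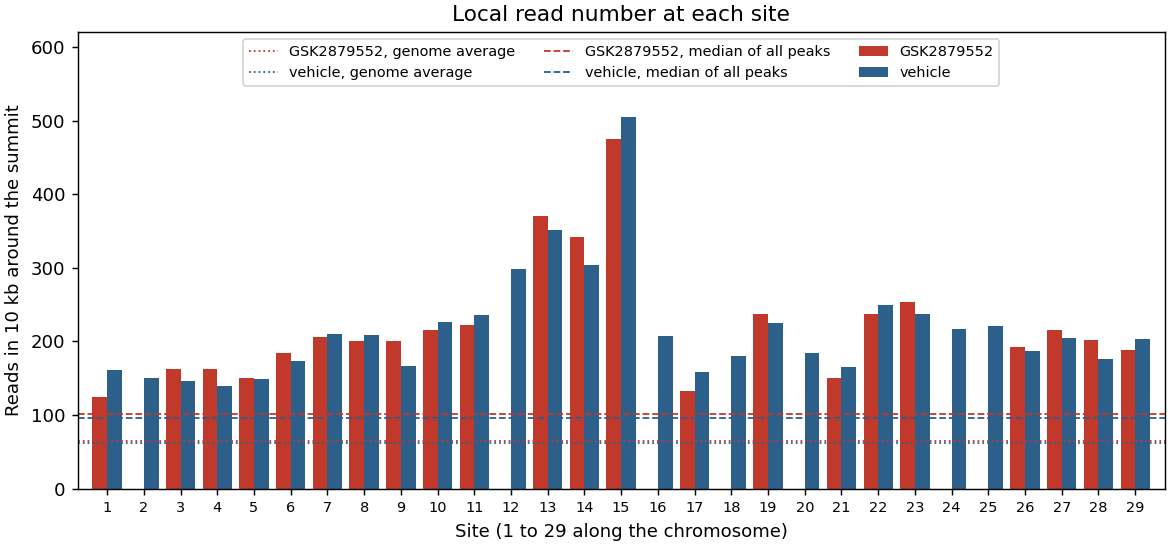
Reads in 10 kb around each summit (GSK2879552 in red, vehicle in blue; no red bar where no GSK2879552 peak was called), with the genome average as dotted and the median of all peaks as dashed lines. Every bar stands above both lines of its library, and the highest bars belong to site 15 (475 and 505 reads).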

How the data were processed

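FOXA2 ChIP-seq of PC3 cells was read from 2 peak lists, 1 for each group, to which the labels of both lanes point. The descriptions call the assay ATAC-seq; titles and series name FOXA2 ChIP-seq, which was followed. Per the submitters' processing notes the tools were BWA 0.7.2, SAMtools 0.1.18 and MACS2 2.1.2 on hg19 (GRCh37). What settings, duplicate handling or control library were used is not given in the sources used here. Each deposited score equals the −log10 q times 10, cut to a whole number. The deposited fold is a ratio of summit fragments to local background with 1 added to each, and the deposited −log10 p and −log10 q come from the authors' peak caller. Folds and −log10 p are the authors', and no ratio of them between lists was formed. The fragment numbers compared between lists were solved from them. Common limits on −log10 p and −log10 q were applied to both lists in the recomputed values below. The summit offset was used as deposited.

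From fold and −log10 p, the whole number of fragments at each summit was solved (under 1500; 100% of peaks in both lists matched within 0.001, and no member had a second match) and tested on simulated data. Ratios of fragments were scaled by the lowest background of each list, 1.08 fragments in both. That floor corresponds to 6.44 reads per kb in GSK2879552 and 6.17 in vehicle, with fragments of 168 bp and 175 bp. Overlap of at least 1 bp was checked with bedtools 2.31.1, and pairs are mutual best partners. Intervals are exact 95% binomial ones for counting error; reads without molecular identifiers are not independent molecules. With 1 list per group no test between groups was made. The members, the lists and the rules for naming sites (12 strongest pairs, 6 strongest unpaired vehicle sites, extremes, and the sites nearest the gene starts, of which 1 rule names site 28) were chosen with earlier results of these data known; further sites were named to account for all. Motifs under peaks and sites at related genes were planned and not run, since no hg19 genome or annotation was used here. Python 3.11.15, scipy 1.17.1 and pandas 2.3.3 were used.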

Additional observations from a re-analysis of the deposited data

How the results depend on the processing

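Of 41 values recomputed with other settings, 40 stayed within a range set for each: the exact interval for shares, peak numbers and peaks per Mb, the relative interval of the peak numbers for covered length, an interval from the ranks of the sites for the median log2 ratio, and 1.5 times for groups of summits. The exception was the overlapped share of vehicle peaks with both lists held to a −log10 q of at least 10, at 44.4%, where 8 GSK2879552 and 18 vehicle peaks were left; a stricter limit by construction removes weak counterparts. The median log2 ratio ran from -0.26 (scaled by reads per kb) to -0.12 (−log10 q of at least 10), and the ratio of peak numbers from 0.444 to 0.767. The range set for the ratio of peak numbers was 0.415 to 1.37, so staying within ranges this wide is a weak check. Scaling by reads per kb, leaving out site 15 and a common −log10 p of at least 10 were chosen after seeing the data. With that common −log10 p, 88.9% of GSK2879552 peaks overlapped, since 2 counterparts fell under the limit. Other overlap rules moved no call.

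No paired analysis was possible because a group holds a single list. Lanes could not be left out in turn, as both lanes of a group share its list. The spread between cultures is not measured.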
